A study of Mus musculus with 9 samples.

Results

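The genes described here are 10 regulators of the DNA damage checkpoint and of the p53 pathway: *Trp53*, *Mdm2*, *Mdm4*, *Atm*, *Atr*, *Chek1*, *Chek2*, *Wee1*, *Trp53bp1* and *Topbp1*. They were picked by name from the 37273 genes of the GENCODE release M1 annotation (mouse build NCBIM37, mm9), of which 22367 are protein-coding, and all 10 were found there. BAP1 binding was mapped by ChIP-Seq in Ba/F3, a mouse B cell precursor line grown in medium with IL-3 from WEHI cells. One immunoprecipitation used an anti-BAP1 antibody on WT cells, and the other an anti-FLAG antibody on cells that stably express triple-FLAG-tagged murine BAP1 under puromycin selection. The authors deposited 1 list of 13164 peaks for both together, each 200 bp wide and with no height or p-value. Peaks are not assigned to either of the 2 samples, each immunoprecipitation was sequenced once, and the depth is unknown. A gene without a peak is therefore one for which no peak was listed. The list holds no expression values, and the identity of the cells was not checked against markers. The 4 input and 3 H2AK119ub samples, which include *Bap1*-knockout clones, were not analysed here.

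BAP1 is a deubiquitinase that removes ubiquitin from histone H2A. The genes under study encode the chain that senses damaged or stalled DNA and halts the cell cycle. ATM responds to double-strand breaks and ATR to single-stranded DNA at stalled forks. TOPBP1 activates ATR, and 53BP1 (encoded by *Trp53bp1*) gathers at breaks. The effector kinases CHK2 and CHK1 act mainly below ATM and ATR, respectively, and WEE1 holds back the mitotic kinase CDK1 by phosphorylation. ATM, ATR, CHK1 and CHK2 also stabilize the transcription factor p53, which MDM2 and its relative MDM4 keep in check. B cell precursors divide fast and also cut their own DNA during immunoglobulin gene rearrangement.

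A gene-proximal peak is one with its middle at most 1 kb from any annotated transcription start site (TSS) of the gene. By this measure 9 of the 10 genes carried a BAP1 peak, a share of 90.0% (95% Wilson interval 59.6 to 98.2, which covers counting error only). The same held for 8850 of the 22367 protein-coding genes (39.6%) and for 9760 of all 37273 genes (26.2%). *Chek1* was the exception, with its nearest peak 40.7 kb away. The 9 genes had 11 gene-proximal peaks, since *Trp53* and *Mdm4* had 2 each. No test was run on this count, because the genes are not replicates and were chosen with earlier results of these data known.

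**Figure D1:**
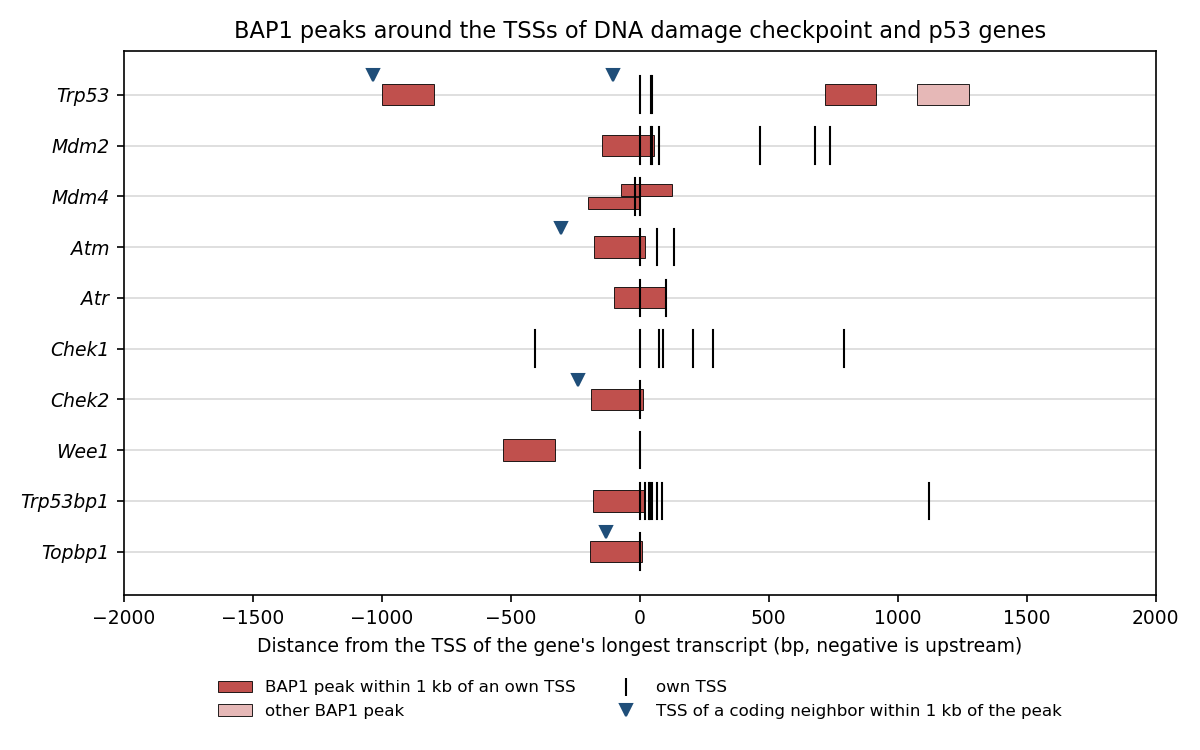
BAP1 peaks (boxes, 200 bp, to scale) within 2 kb of the TSS of each gene's longest transcript, in bp along the gene's own strand, with the gene's TSSs as black ticks and the TSSs of protein-coding neighbors as blue triangles. At 7 genes a peak covers a TSS, at *Trp53* peaks lie on both sides of the TSSs, at *Wee1* the peak lies upstream, and at *Chek1* there is none.

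The sequences below are those on which the following results turn. For each peak they give the longest stretch outside exons of protein-coding genes, on the strand of the gene, from build mm9. For *Chek1*, which has no peak, the 150 bases before the TSS of its longest transcript are given for comparison; they lie in the first exon of a noncoding *Chek1* transcript. Capitals mark matches to any of the 11 motifs named further below, on either strand.

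*Trp53*, upstream peak (chr11:69392864-69393063, plus strand): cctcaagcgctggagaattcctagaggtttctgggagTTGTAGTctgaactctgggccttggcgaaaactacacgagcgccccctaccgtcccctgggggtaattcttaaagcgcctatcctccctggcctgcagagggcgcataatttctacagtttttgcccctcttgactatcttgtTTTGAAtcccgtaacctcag
*Trp53*, intron peak (chr11:69394579-69394778, plus strand): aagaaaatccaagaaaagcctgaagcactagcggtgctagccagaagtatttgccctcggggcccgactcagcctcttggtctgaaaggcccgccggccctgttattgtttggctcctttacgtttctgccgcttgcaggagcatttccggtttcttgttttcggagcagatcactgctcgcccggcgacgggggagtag
*Mdm2* (chr10:117147815-117147960, minus strand): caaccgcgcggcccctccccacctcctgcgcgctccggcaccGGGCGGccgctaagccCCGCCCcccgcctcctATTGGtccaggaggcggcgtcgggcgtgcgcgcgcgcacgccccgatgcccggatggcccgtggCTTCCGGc
*Mdm4*, upstream peak (chr1:134921944-134922126, minus strand): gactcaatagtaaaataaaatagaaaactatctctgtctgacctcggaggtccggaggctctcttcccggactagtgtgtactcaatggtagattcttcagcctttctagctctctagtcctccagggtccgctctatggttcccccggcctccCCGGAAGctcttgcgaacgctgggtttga
*Atm* (chr9:53344846-53345024, minus strand): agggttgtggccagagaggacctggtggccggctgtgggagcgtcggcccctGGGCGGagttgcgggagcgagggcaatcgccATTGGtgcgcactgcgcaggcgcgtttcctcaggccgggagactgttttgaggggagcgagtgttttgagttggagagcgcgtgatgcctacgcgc
*Topbp1* (chr9:103207413-103207544, plus strand): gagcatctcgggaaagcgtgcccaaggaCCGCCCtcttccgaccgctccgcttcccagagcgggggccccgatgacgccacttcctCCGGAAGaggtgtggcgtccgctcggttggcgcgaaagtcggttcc
*Chek2* (chr5:111268848-111269035, plus strand): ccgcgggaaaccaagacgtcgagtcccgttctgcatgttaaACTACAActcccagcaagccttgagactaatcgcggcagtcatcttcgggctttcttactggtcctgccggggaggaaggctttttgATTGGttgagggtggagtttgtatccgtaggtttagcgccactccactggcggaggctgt
*Wee1* (chr7:117265336-117265535, plus strand): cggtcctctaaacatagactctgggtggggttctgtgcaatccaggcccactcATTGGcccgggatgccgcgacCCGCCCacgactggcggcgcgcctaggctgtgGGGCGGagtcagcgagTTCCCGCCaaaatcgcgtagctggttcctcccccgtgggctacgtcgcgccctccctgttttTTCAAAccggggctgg
*Chek1*, no peak (chr9:36534244-36534393, minus strand): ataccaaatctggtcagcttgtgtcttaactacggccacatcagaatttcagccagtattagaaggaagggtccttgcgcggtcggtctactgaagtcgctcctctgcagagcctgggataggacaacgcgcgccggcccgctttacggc

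Among the apical kinases, *Atm* lies on the minus strand of chromosome 9, from 53247254 to 53344845. Its peak, at chr9:53344825-53345024, covered the TSS of the longest transcript and had its middle 79 bp upstream of it. Here and below, a negative or upstream distance is counted against the direction of the gene. Of its 6 annotated TSSs, 3 lay within 1 kb of this peak, and the other 3 start inside the gene. On the other side of the peak, the TSS of *Npat*, which encodes a coactivator of histone gene transcription in S phase, lies 307 bp from that of *Atm* on the opposite strand. The middle of the peak was 228 bp upstream of the *Npat* TSS, so the same peak is gene-proximal to both genes. The stretch printed above is the sequence between the first *Atm* exon and the far edge of the peak, read from the *Npat* side toward *Atm*. A second peak, at chr9:53316147-53316346, fell in intron 14 of the longest *Atm* transcript and 25.8 kb downstream of the nearest *Atm* TSS, with no other TSS within 1 kb.

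*Atr* (chr9:95758016-95852063, plus strand) has 2 annotated TSSs. The middle of its peak, chr9:95757917-95758116, coincided with the annotated TSS of the longest transcript, at a distance of 0 bp. The other TSS of *Atr* lay 103 bp downstream of the middle. This was the only peak within 50 kb of *Atr*, and no protein-coding neighbor had a TSS within 1 kb of it. A pseudogene on the opposite strand, *1700065D16Rik*, starts 169 bp from an *Atr* TSS, inside *Atr*.

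Both mediators carried a peak at the TSS. *Topbp1* (chr9:103207545-103252762, plus strand) has 1 annotated TSS, and its peak at chr9:103207354-103207553 had its middle 92 bp upstream. The opposite-strand gene *1300017J02Rik* starts 133 bp upstream of *Topbp1*, and its TSS was nearer to the middle of the peak, at 41 bp. This peak covered both divergent TSSs, whereas that of *Atm* did not reach the TSS of *Npat*, and no further peak lay within 50 kb of *Topbp1*. *Trp53bp1* (chr2:121019017-121097143, minus strand) has 20 annotated TSSs, of which 7 lay within 1 kb of its peak, chr2:121097126-121097325. The middle was 82 bp upstream of the TSS of the longest transcript. The TSSs further inside *Trp53bp1* had no peak within 1 kb. *Trp53bp1* had no divergent neighbor within 1 kb, as the nearest opposite-strand TSS upstream, that of *Mtap1a*, lies 18193 bp away.

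The effector kinases differed from each other. At *Chek2* (chr5:111269036-111303152, plus strand) a peak at chr5:111268848-111269047 covered the only annotated TSS, with its middle 89 bp upstream. The divergent gene *Hscb*, which encodes a cochaperone of iron-sulfur cluster assembly, starts 240 bp from *Chek2*, and the middle of the peak was 151 bp upstream of the *Hscb* TSS, which it did not reach. In contrast, none of the 9 annotated TSSs of *Chek1* (chr9:36516067-36534650, minus strand) had a peak within 1 kb or within 5 kb. The nearest peak, at chr9:36575289-36575488, lay 40738 bp upstream, and a further one at chr9:36575528-36575727 lay 40977 bp upstream. A nearest peak beyond 1 kb but within 50 kb was found for 23.2% of protein-coding genes. Both were gene-proximal to the noncoding gene *Gm16881* and to *Stt3a*, an oligosaccharyltransferase subunit, with the first 84 bp and 124 bp from their TSSs. Of the protein-coding genes without a gene-proximal peak, 66.0% had their nearest peak at least as far away as *Chek1*. *Chek1* had no divergent neighbor within 1 kb.

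*Wee1*, the mitotic brake (chr7:117265864-117285626, plus strand), has 1 annotated TSS. Its peak, chr7:117265336-117265535, had its middle 429 bp upstream and did not reach the TSS. Among the protein-coding genes with a gene-proximal peak, 3.32% had their nearest one at this distance or further. Another 3 peaks lay within 50 kb, at 12991 bp upstream and at 42616 and 48019 bp downstream, and none of them was within 1 kb of any annotated TSS. *Wee1* was the only one of the 10 genes with more than 1 such peak besides its gene-proximal ones.

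At *Trp53* (chr11:69393861-69405375, plus strand), no peak covered a TSS. The first peak, chr11:69392864-69393063, had its middle 898 bp upstream. It was 137 bp upstream of 1 TSS of *Wrap53*, the neighbor on the opposite strand, which encodes a protein of telomerase assembly and has another TSS 104 bp from that of *Trp53*. The second peak, chr11:69394579-69394778, lay in intron 1, with its middle 771 bp downstream of the nearest *Trp53* TSS. A further peak, chr11:69394938-69395137, lay in the same intron at 1130 bp, just beyond the 1 kb limit. Between the upstream peak and the first intron peak, the 3 clustered *Trp53* TSSs and the nearer *Wrap53* TSS had no listed peak over them. The other 2 *Trp53* TSSs, inside the gene, had their nearest peak 5356 and 7160 bp upstream. Only 0.870% of the protein-coding genes with a gene-proximal peak had their nearest one as far from a TSS as *Trp53*. With a window of 500 bp, *Trp53* had no gene-proximal peak and the count fell to 8 of 10 genes.

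The genes of the p53 inhibitors both had a peak over the TSS. The peak of *Mdm2* (chr10:117125944-117147814, minus strand), at chr10:117147761-117147960, had its middle 46 bp upstream of the longest transcripts. *Mdm2* has a further promoter in its first intron that responds to p53, and the annotation lists 4 transcripts that start within the first 1 kb of the gene and beyond the edge of the peak. One of them, at 117147741, starts close to that edge. The middle of the peak was 512, 726 and 782 bp upstream of the others, and no separate peak lay nearer. *Mdm4* (chr1:134886422-134921943, minus strand) had 2 peaks that overlap by 73 bp, at chr1:134921800-134921999 and chr1:134921927-134922126. Their middles lay 26 bp downstream and 83 bp upstream of the nearest TSS. Merging peaks within 500 bp joined them into 1. Neither *Mdm2* nor *Mdm4* had a divergent neighbor within 1 kb.

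Over the 9 genes, the median distance from the middle of the nearest peak to a TSS was 82.0 bp, compared with 46.0 bp (quartiles 19 and 91 bp) over the 8850 protein-coding genes with a gene-proximal peak. The distance was at most 150 bp at 7 of the 9, a share close to the 85.9% of those 8850 genes. The nearest peak was upstream of the TSS at 6 of them, compared with 74.9%. At 7 a peak covered a TSS, compared with 77.7%. Of the 9 genes, *Trp53* and *Wee1* had the most distant peaks.

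**Figure D2:**
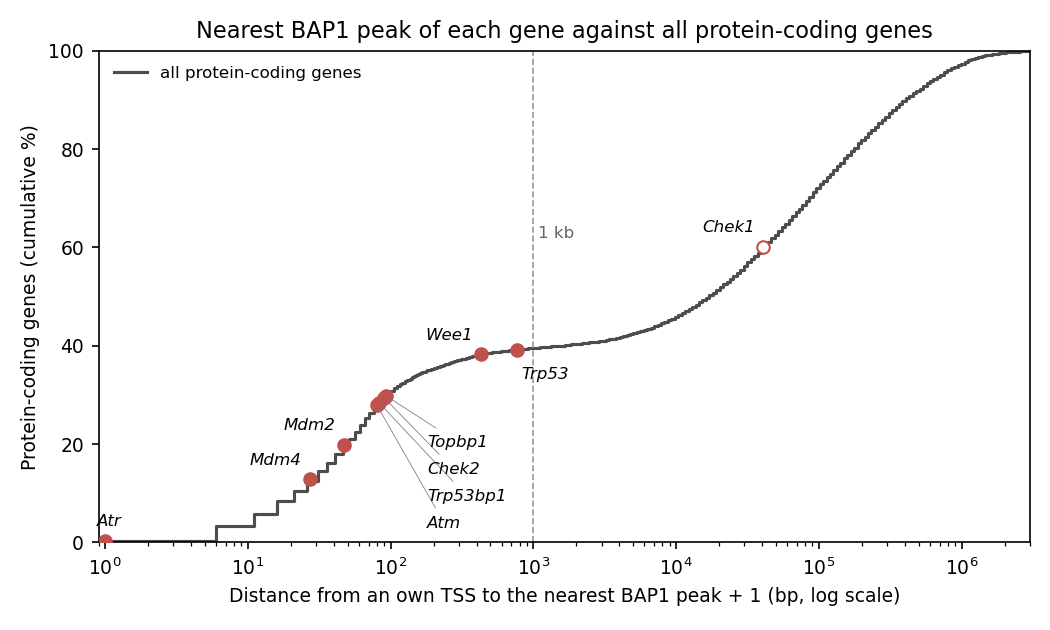
Cumulative share of all protein-coding genes (grey line, %) by the distance from an own TSS to the nearest BAP1 peak (bp plus 1, log scale), with the 10 genes as circles on it (open: no gene-proximal peak). From *Atr* at 0 bp to *Topbp1* at 92 bp, 7 genes sit on the steep part of the curve, *Wee1* at 429 bp and *Trp53* at 771 bp on the plateau before 1 kb, and *Chek1* at 40738 bp beyond it.

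A divergent neighbor, meaning a gene on the opposite strand that starts within 1 kb upstream, was present at 4 of the 10 genes: *Trp53*, *Atm*, *Chek2* and *Topbp1*. All 4 have a gene-proximal peak, and at each of them a peak was also within 1 kb of the neighbor's TSS. Of all protein-coding genes 13.9% have a divergent neighbor, and of those with a gene-proximal peak 27.9% do. A gene-proximal peak was listed for 79.0% of the protein-coding genes with such a neighbor and for 33.2% of those without. At *Trp53* both gene-proximal peaks were also gene-proximal to *Wrap53*, the intron peak at 921 bp and the upstream one, at 137 bp, nearer to *Wrap53* than to *Trp53*. At all 4 genes it cannot be told from the list to which of the divergent genes a peak belongs.

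Within 50 kb of the 10 genes there were another 17 peaks beside the gene-proximal ones. Of these, 10 lay within 1 kb of the TSS of another gene, such as *Fxr2* near *Trp53*, *Slc35e3* near *Mdm2*, *Ulk1* and *Ttc28* near *Chek2*, and *Tubgcp4* near *Trp53bp1*. The other 7 had no TSS of another gene within 1 kb. They comprise the *Trp53* peak at 1130 bp, the *Atm* intron peak, the 3 near *Wee1*, 1 at 49.8 kb from *Mdm4* and 1 at 31.4 kb from *Chek2*. The last of these lay 1516 bp from a TSS of *Ulk1*. *Atr* and *Topbp1* had no peak other than that at their TSS.

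CpG-rich promoters are common at housekeeping genes, and BAP1 peaks in this list were far more frequent at them. The ratio of observed over expected CpG in the window reaching 500 bp to each side of the main TSS had a median of 0.764 over the protein-coding genes with a gene-proximal peak and of 0.296 over those without. The 10 genes had a median of 0.795 and ranged from 0.549 at *Trp53* to 0.974 at *Wee1*. *Mdm2* (0.948), *Topbp1* (0.925), *Atm* (0.919) and *Atr* (0.875) were also high, while *Trp53bp1* (0.716), *Chek2* (0.700) and *Mdm4* (0.645) were intermediate. *Chek1* had a ratio of 0.645, as did *Mdm4*, which had 2 peaks. Of the 10613 protein-coding genes with a ratio within the range of the 10 genes, 7168 had a gene-proximal peak (67.5%). That share lies within the 95% Wilson interval of the 10 genes, 59.6 to 98.2%. In this CpG range the share was 85.8% with a divergent neighbor and 62.1% without, a smaller gap than over all protein-coding genes. Among 2486 genes whose ratio was within 0.05 of that of *Chek1*, 1429 (57.5%) had one.

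**Figure D3:**
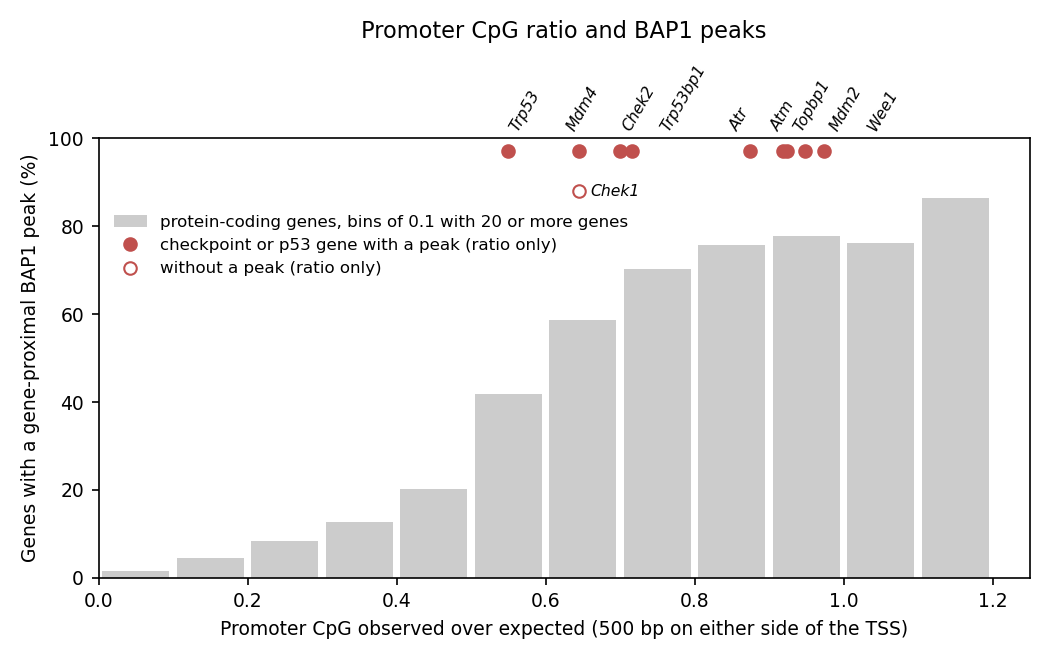
Share of protein-coding genes with a gene-proximal BAP1 peak (bars, %) per bin of 0.1 of the promoter CpG ratio, with the ratios of the 10 genes as circles at the top (filled: with a peak, open: without; their height has no meaning). All 10 lie at ratios of 0.549 and above, where the bars reach 41.9% or more, and *Chek1* shares its ratio with *Mdm4*.

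The 200 bp under each gene-proximal peak were searched on both strands for 11 short motifs. These were CCGGAAG (ETS factors), GCGCATGC (NRF1), AAGATGG (YY1), GGGCGG (SP/KLF), CCAAT, TGACGTCA (CRE), CACGTG (E-box), GGCGGGAA (E2F), ACTACAA (ZNF143/THAP11), GTAAACA (FOXK) and TTTGAA (CHR, the cell cycle homology region). No motif contains another whole, though single matches can overlap. A match is a string of letters and not evidence of a bound factor. The ETS motif was found at 4 genes (*Mdm2*, *Mdm4*, *Atr* and *Topbp1*), in 5 of the 11 peaks, and in 16.8% of all 13164 peaks. At *Mdm4* its matches lie in the stretch shared by both overlapping peaks, so the same letters are counted for each peak. At *Topbp1* it is the single CCGGAAG printed above. The SP/KLF motif occurred in 6 of the 11 peaks, against 59.5% of all peaks, and CCAAT in 4, against 28.5%.

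*Wee1* had the most kinds of motif of any of these peaks, with SP/KLF, CCAAT, E2F and CHR matches in its 200 bp. The E2F match, on the minus strand, was the only one among the 11 peaks, and 3.05% of all peaks have one. E2F and CHR elements are known from the promoters of genes that change with the cell cycle. The CHR motif was also present at *Mdm4* and in the upstream *Trp53* peak, and in 5.80% of all peaks. ACTACAA, the core shared by ZNF143 and the HCF1 partner THAP11, was found in the *Chek2* peak and in the upstream *Trp53* peak, and in 2.54% of all peaks. The *Trp53* intron peak contained none of the 11, which was true of 17.9% of all peaks. The YY1, NRF1, CRE, E-box and FOXK letters were in none of the 11 peaks, and these motifs are themselves found in 2.49 to 7.04% of all peaks. The consensus half-site of p53 itself was likewise in none of the 11 peaks and in 3.61% of all peaks. Elements that depart from the consensus were not counted, so whether the peaks lack p53 elements was not tested. The stretch at the TSS of the longest *Trp53* transcript, which no peak covers, did hold a half-site.

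**Figure D4:**
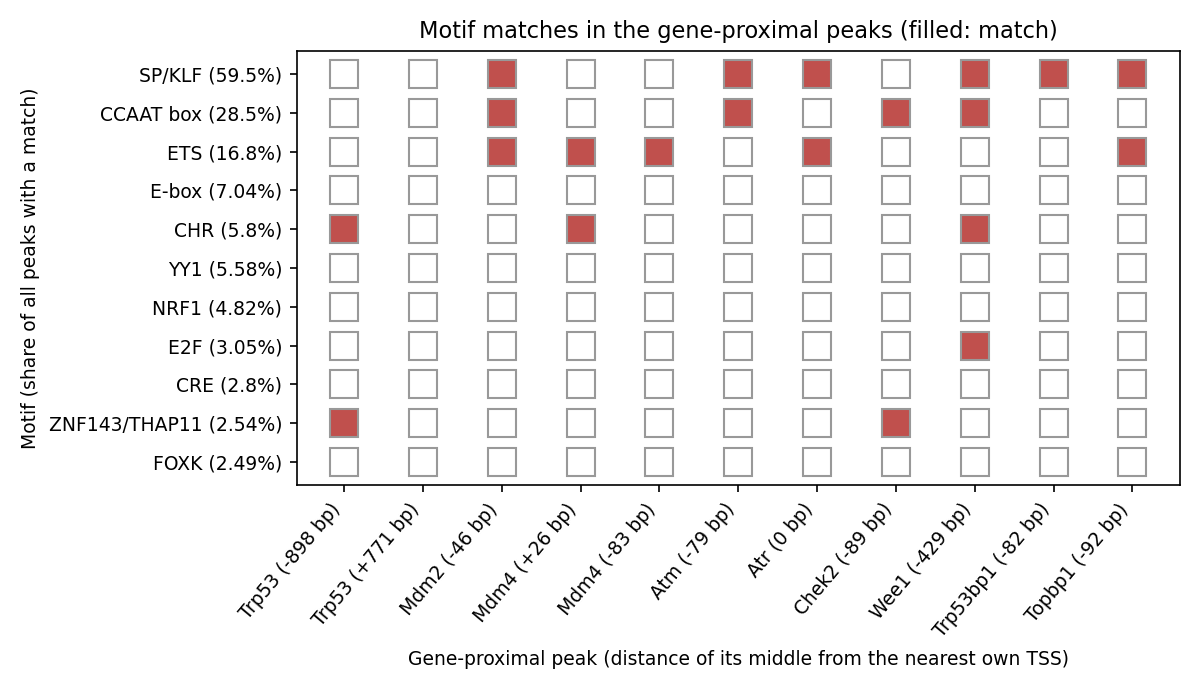
Motif matches (filled squares) in the 11 gene-proximal peaks, named by gene and by the distance of the peak's middle from the nearest own TSS, with the share of all 13164 peaks that hold each motif in brackets (%). The SP/KLF row is the fullest with 6 peaks, followed by ETS with 5, and *Wee1* has the most filled squares.

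For *Chek1*, the window from 150 bases before to 50 bases after the TSS of the longest transcript was searched in the same way as for all protein-coding genes. It held the E2F motif, which is in 2.15% of these windows, 3.63% of those with a gene-proximal peak and 1.18% of those without. The stretch printed above, which ends before the TSS, does not hold this match whole. *Chek1* had neither the ETS nor the SP/KLF letters, which were in 20.2% and 63.5% of the windows of genes with a gene-proximal peak and in 2.60% and 26.1% of those without. *Mdm4*, with the same CpG ratio, had the ETS motif. The windows of *Trp53* and *Chek2*, which have a gene-proximal peak, lacked both motifs as *Chek1* did.

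The wider pathway was described with 61 further genes in 6 lists, of which 60 were found in the annotation. Of these, 54 (90.0%, 95% Wilson interval 79.9 to 95.3) had a gene-proximal peak. The share was 39.6% over all protein-coding genes and 67.5% over those in the CpG range of the 10 genes given above. That range was not matched to the 60 genes, whose CpG ratios ran from 0.126 at *Cdkn1a* to 1.06 at *Rfwd2*. These ratios were taken at the TSS of the longest transcript, which at *Cdkn1a*, *Sirt1* and *Usp7* had no gene-proximal peak. At the 54 genes the median distance to a TSS was 51.0 bp. All 12 genes found among the sensors and kinase partners had a gene-proximal peak. *Hus1*, a subunit of the sliding clamp loaded at damage, had its peak 0 bp from a TSS. The clamp subunit *Rad1*, the clamp loader *Rad17* and the nuclease *Mre11a* had theirs at 22, 7 and 9 bp. *Tti2* was not matched by name. All 11 mediators had a peak, with the middle 9 bp from a TSS at *Tipin*, a replication fork protection factor, and at *Uimc1*, which reads ubiquitin chains at breaks. The distance was 11 bp at the ubiquitin ligase *Rnf8* and 14 bp at *Clspn*, the adaptor through which ATR activates CHK1. *Brca1* was the most distant of them, at 797 bp.

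All 8 cell cycle effectors had a gene-proximal peak, among them the p53 phosphatase *Ppm1d* at 18 bp, the kinase *Pkmyt1*, a relative of *Wee1*, at 24 bp, the mitotic kinase *Plk1* at 35 bp and the CDK-activating phosphatase *Cdc25b* at 74 bp. The targets of CHK1 in this list, the phosphatases *Cdc25a*, *Cdc25b* and *Cdc25c*, thus had a peak and *Chek1* itself had none. Among the 8 other regulators of p53, 7 had a peak, with the acetyltransferases *Ep300* and *Kat5* at 1 and 8 bp, the deacetylase *Sirt1* at 29 bp and the ubiquitin ligase *Rfwd2* at 43 bp. *Cdkn2a*, which encodes the MDM2 inhibitor ARF, had none within 1 kb, and its nearest peak was 17.4 kb downstream. Its promoter has a CpG ratio of 0.971, above that of 8 of the 9 checkpoint and p53 genes with a peak.

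Of 19 target genes of p53, 16 had a gene-proximal peak (84.2%, 95% Wilson interval 62.4 to 94.5). The share was 39.6% over all protein-coding genes. Over those in the CpG range given above, which was not matched to this list, it was 67.5%, a value within the interval. The same background applies to the cell cycle effectors and the other p53 regulators above. All lists were chosen with earlier results of these data known. Among the p53 targets, the middle of the peak lay 2 bp from a TSS at *Ccng1* (cyclin G) and 17 bp at *Bax*, which permeabilizes mitochondria. It lay 26 bp away at *Pidd* (annotated as *Lrdd*) and 36 bp at the nuclease *Aen*. At *Cdkn1a*, which encodes the CDK inhibitor p21, the gene-proximal peak was at an alternative TSS, and the TSS of the longest transcript was 2692 bp from the nearest peak. With the TSS of the longest transcript alone, *Cdkn1a*, *Sirt1* and *Usp7* had no gene-proximal peak and the 54 pathway genes became 51. The remaining 3 had their nearest peak beyond 50 kb, which was 456 kb away at *Pmaip1* (the BH3-only protein NOXA), 170 kb at *Perp*, a desmosome component, and 1281 kb at *Eda2r*, a receptor of the TNF receptor family. Both paralogs of *Trp53* lacked a gene-proximal peak, and their interval is wide (0 of 2, upper limit 65.8%). *Trp63*, which is known for its role in epithelia, had its nearest peak 780 kb away. *Trp73* had one 2.14 kb upstream of a TSS, which counted only with a window of 5 kb.

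**Figure D5:**
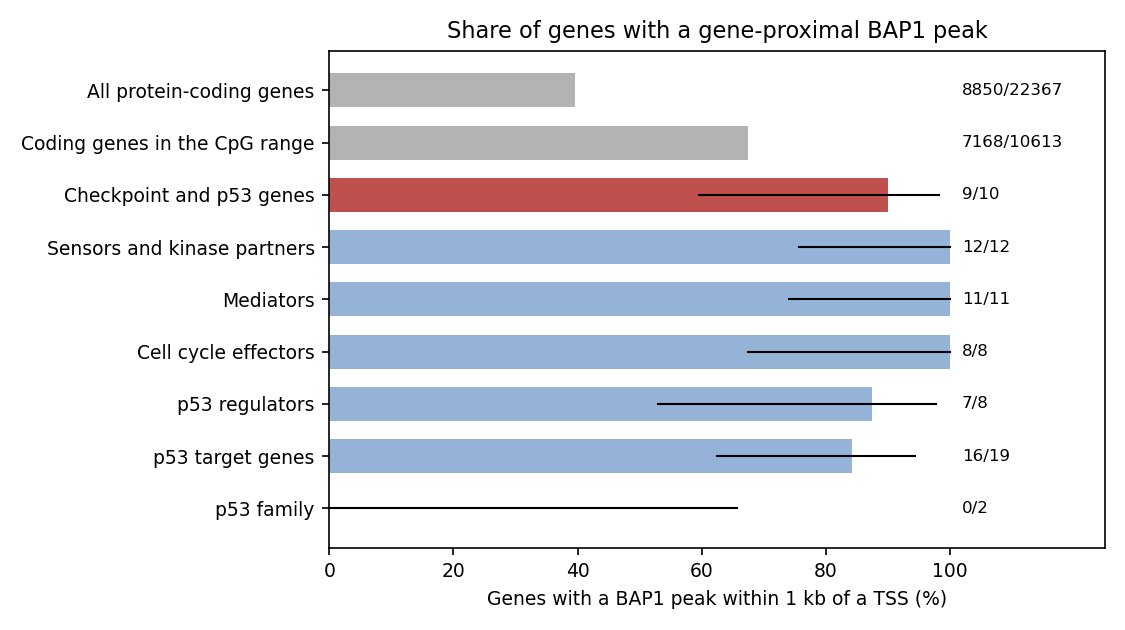
Share of genes with a BAP1 peak within 1 kb of a TSS (%), for all protein-coding genes, for protein-coding genes in the CpG range of the 10 genes, for the 10 checkpoint and p53 genes and for 6 lists of the wider pathway, with counts at the right and lines for 95% Wilson intervals. The 10 genes reach 90.0%, 3 of the lists have a peak at every gene and the p53 family is at 0 of 2.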

How the data were processed

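BAP1 binding was measured by ChIP-Seq in Ba/F3 cells with 52.8 μg of anti-BAP1 or 5 μg of anti-FLAG antibody. Reads were aligned to mm9 by the authors using Bowtie 1.0.0. MACS, version 1.4.2 in the submitters' processing notes, then found peaks against input DNA. The threshold and the rule that joined both samples are not given in the sources used here. The deposited list gives coordinates alone, a first and last base per peak, with no score.

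Peaks were placed on GENCODE release M1 (mm9), without mitochondrial genes. The middle of a peak, its start plus 100 bp, was compared with all TSSs. Sequences came from the NCBIM37 genome. Counts and medians are descriptive and no test was made, since there are no replicates. The members and lists were chosen with earlier results of these data known. The named genes are the 10 members, neighbors with a TSS at their peaks or divergent to them, all list genes without a gene-proximal peak and the 4 of each list with the nearest peak; *Brca1*, *Cdkn1a*, *Cdc25a*, *Cdc25c*, *Usp7*, *Stt3a* and the genes of more distant peaks were added after their values were seen. Alternatives were the edge of the peak, 1 TSS per gene, TSSs of protein-coding transcripts, windows of 500 bp, 2 kb and 5 kb, and merging within 500 bp. The distance code was checked on the peak list at random positions, and the merging against bedtools. The code of the motif search was not checked in this way. Scripts used Python 3.11.15, pandas 2.3.3, scipy 1.17.1 and bedtools 2.31.1.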

Additional observations from a re-analysis of the deposited data

How the results depend on the processing

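Under the 7 alternatives, the number of the 10 genes with a gene-proximal peak was 9, except with a window of 500 bp, which left out *Trp53* and gave 8. The gene-proximal peaks numbered between 9 and 12 (11 as reported), the genes of the wider pathway with one between 51, with 1 TSS per gene, which left out *Cdkn1a*, *Sirt1* and *Usp7*, and 55 (54 as reported), and the share of protein-coding genes between 37.6 and 42.5% (39.6% as reported). Of the 70 counts of peaks at single genes, 2 moved by over 1.5 times, at *Trp53* to 0 with the 500 bp window and at *Mdm4* to 1 with merging. *Chek1* had 0 under each of them. A stricter threshold was not run because the list has no score. No replicate could be left out, and a depth limit cannot be given. No paired analysis was possible because the result comes from no test and the list has no columns for single samples.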
